A study of Mus musculus with 4 samples.

Results

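The genes that encode extracellular proteases and their inhibitors were followed by RNA-Seq in mouse brown preadipocytes before and during adipogenesis. The list held 46 genes of the matrix metalloproteinase (MMP), ADAM, ADAMTS, ADAMTS-like, tissue inhibitor of metalloproteinases (TIMP) and plasminogen activator families, chosen by name, and 45 of them were found among the 22459 gene symbols of the deposited files. *Adamtsl5* was not matched and has no value here. Each gene is represented by its RefSeq transcript with most reads over the 4 libraries.

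The cells came from interscapular brown adipose tissue of C57BL/6J embryos at E18.5, had the genotype *Mll3*-/-;*Mll4* f/f, and were immortalized with SV40T, so that by genotype every library lacks MLL3, and all carry a viral oncogene. MLL3 and MLL4 are related histone H3K4 methyltransferases. Cells infected with an adenovirus that expresses GFP (Ad-GFP) kept the floxed *Mll4* alleles and by genotype lack MLL3 alone, although the labels call them WT. Cells infected with an adenovirus that expresses Cre (Ad-Cre) were made to delete *Mll4* and are labelled as lacking both enzymes. Day 0 is confluent cells before induction, and day 2 is after treatment with insulin, T3, indomethacin, dexamethasone and IBMX, which together induce fat cell differentiation. There was 1 library for each of the 4 conditions, so no difference below has a replicate check, no test was run and no p-value is given. Intervals are exact binomial 95% intervals for the reads of the compared libraries. They cover counting error only, and they compare these libraries, not the conditions.

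MMPs are zinc-dependent endopeptidases that cut collagens and other matrix proteins, either secreted or held at the cell surface. ADAMs are membrane proteins, several of which release the outer part of other membrane proteins, and ADAMTS enzymes are secreted and cut proteoglycans or trim procollagens. TIMPs block MMPs and some ADAM and ADAMTS enzymes, and the plasminogen activators turn plasminogen into plasmin, a protease with a broad range of targets. In adipose tissue, precursor cells lie in a collagen-rich matrix that is remodelled as they fill with lipid, and the membrane-anchored collagenase encoded by *Mmp14* is known for a role in this process.

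The reads were counted on exons, so the sequences that lie before these genes are given as context for the values that follow. Of the 45 genes, 28 have a promoter in the RefSeq promoter table of build GRCm38.p6. The 250 bases before the start were searched on both strands for 3 motifs, TGANTCA (the AP-1 consensus), TTNCGCAA (a C/EBP sequence) and TATAAA (the TATA box). Counted per gene, the AP-1 motif was found for 5 of the 28 (17.9%) against 6.75% of all 32851 promoters in the table, the TATA box for 4 (14.3%) against 12.4%, and the C/EBP motif for 0 against 0.67%. These units differ, since a gene with several promoters, such as *Adam19*, has more than 1 chance of a match. Of the genes with the AP-1 motif, *Mmp3*, *Mmp10* and *Mmp13* are related genes of 1 cluster on chromosome 9. A match describes letters in a window and is neither a site of binding nor a cause. The 150 bases before the start are printed for 8 genes, 5' to 3' on the gene's own strand, in lower case with matches to the 3 motifs in capitals. *Mmp3* (chr9:7445672-7445821), *Mmp10* (chr9:7502192-7502341) and *Mmp13* (chr9:7272364-7272513) are shown because they hold both the AP-1 motif and the TATA box and are nearly without reads below, and *Plaur* (chr7:25247352-25247501) because it holds the AP-1 motif and is expressed. *Adamts1* (chr16:85803359-85803508) has a TATA box and is among the genes with the highest level. *Mmp14* (chr14:55050285-55050434), *Adamts12* (chr15:10994378-10994527) and *Timp4* (chr6:115202224-115202373) show none of the 3 motifs and turn in different directions below. Coordinates are those of an exact match in NCBI37/mm9, the build of the files, and *Adamts1* and *Timp4* lie on the minus strand. The starts are those of the RefSeq promoters and can differ from the gene positions given below. For *Timp4* the window lies upstream of the gene position (chr6:115195634-115201867), with a gap between them.
Mmp3: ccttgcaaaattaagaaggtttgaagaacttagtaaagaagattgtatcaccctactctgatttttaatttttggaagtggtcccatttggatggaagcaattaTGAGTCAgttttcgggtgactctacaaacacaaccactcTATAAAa
Mmp10: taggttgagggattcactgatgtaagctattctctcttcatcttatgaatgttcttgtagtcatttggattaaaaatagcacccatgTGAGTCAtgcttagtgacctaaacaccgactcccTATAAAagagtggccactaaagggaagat
Mmp13: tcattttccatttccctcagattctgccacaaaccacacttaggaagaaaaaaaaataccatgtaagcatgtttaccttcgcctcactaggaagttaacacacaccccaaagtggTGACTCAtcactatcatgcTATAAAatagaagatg
Plaur: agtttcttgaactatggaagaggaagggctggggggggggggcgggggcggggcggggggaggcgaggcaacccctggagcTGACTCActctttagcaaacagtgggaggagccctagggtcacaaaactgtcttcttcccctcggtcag
Adamts1: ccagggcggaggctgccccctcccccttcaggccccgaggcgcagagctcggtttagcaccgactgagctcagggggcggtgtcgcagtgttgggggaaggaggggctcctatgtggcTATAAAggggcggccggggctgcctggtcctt
Mmp14: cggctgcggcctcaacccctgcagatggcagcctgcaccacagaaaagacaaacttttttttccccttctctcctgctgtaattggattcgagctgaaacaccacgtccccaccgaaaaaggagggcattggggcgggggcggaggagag
Adamts12: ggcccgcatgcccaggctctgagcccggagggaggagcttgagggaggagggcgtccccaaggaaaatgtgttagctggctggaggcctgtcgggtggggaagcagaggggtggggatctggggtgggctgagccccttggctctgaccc
Timp4: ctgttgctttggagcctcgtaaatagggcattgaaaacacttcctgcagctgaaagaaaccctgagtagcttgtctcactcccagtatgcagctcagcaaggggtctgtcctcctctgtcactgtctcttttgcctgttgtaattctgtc
The first base of the AP-1 motif lies 46 bases before the start in *Mmp3*, 63 in *Mmp10*, 35 in *Mmp13* and 69 in *Plaur*. The TATA box begins 7 bases before the annotated start in *Mmp3*, 29 in *Mmp10*, 16 in *Mmp13* and 32 in *Adamts1*. The 5th gene with the AP-1 motif was *Adam19*, with the motif 131 bases before the start of 1 of its promoters.

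Mapped reads ranged from 17198448 to 22986362 per library, and 3 reads on 1 kb of exon make 0.131 to 0.174 RPKM (reads scaled to exon length and to mapped reads). *Kmt2d*, the current symbol of *Mll4*, had 6304 and 8530 reads in the Ad-GFP cells and 6316 and 5595 in the Ad-Cre cells at day 0 and day 2. *Kmt2c*, the current symbol of *Mll3*, had 522 and 1224 reads in the Ad-GFP and 463 and 451 in the Ad-Cre cells. A count over the whole transcript does not show the loss of a few exons, so these reads check neither the *Mll4* deletion nor the *Mll3* knockout, and the labels are taken as given. Of 9 adipocyte markers, 7 were expressed, and the summed level of the 9 went from 31.0 to 2001 RPKM in the Ad-GFP cells and from 16.4 to 491 RPKM in the Ad-Cre cells. The brown fat markers *Ucp1* and *Cidea* had at most 1 read in any library. *Prdm16*, a transcription factor of brown fat, was low but had reads in all 4 libraries, at 0.554 and 2.14 RPKM in the Ad-GFP cells (82 and 424 reads) and 0.691 and 0.677 RPKM in the Ad-Cre cells (116 and 105 reads). The 6 mesenchymal markers summed to 2094 and 227 RPKM in the Ad-GFP cells and to 1738 and 377 RPKM in the Ad-Cre cells. Of the macrophage markers 4 were found, and they summed to at most 0.24 RPKM, with *Adgre1* and *Ptprc* at 0 reads in every library, and the 4 endothelial markers to at most 0.23 RPKM. Of 4 skeletal muscle markers, *Myod1*, *Myog* and *Ckm* had at most 1 read in a library, but the muscle actin gene *Acta1* had 18.4 and 0.364 RPKM in the Ad-GFP cells and 48.5 and 3.41 RPKM in the Ad-Cre cells, higher in the Ad-Cre cells 2.64-fold at day 0 and 9.35-fold at day 2. In bulk RNA, fewer cells of a type and less RNA per cell cannot be told apart.

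A gene was called expressed when it passed 1 RPKM in the Ad-GFP cells at day 0 or day 2, and called higher or lower when its ratio of RPKM passed 2.5-fold, the thresholds used in the study. Of the 45 genes, 37 were expressed, 28 of them on both days and 9 on one day alone. The 8 others are *Mmp3*, *Mmp9*, *Mmp10*, *Mmp13*, *Adamts8*, *Adamts17*, *Adamtsl1* and *Adam8*. A gene that passed on one day alone had to differ between the days, so counts over the 37 genes are descriptions. RPKM and reads are given in the order Ad-GFP day 0, Ad-GFP day 2, Ad-Cre day 0 and Ad-Cre day 2 throughout.

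**Figure D1:**
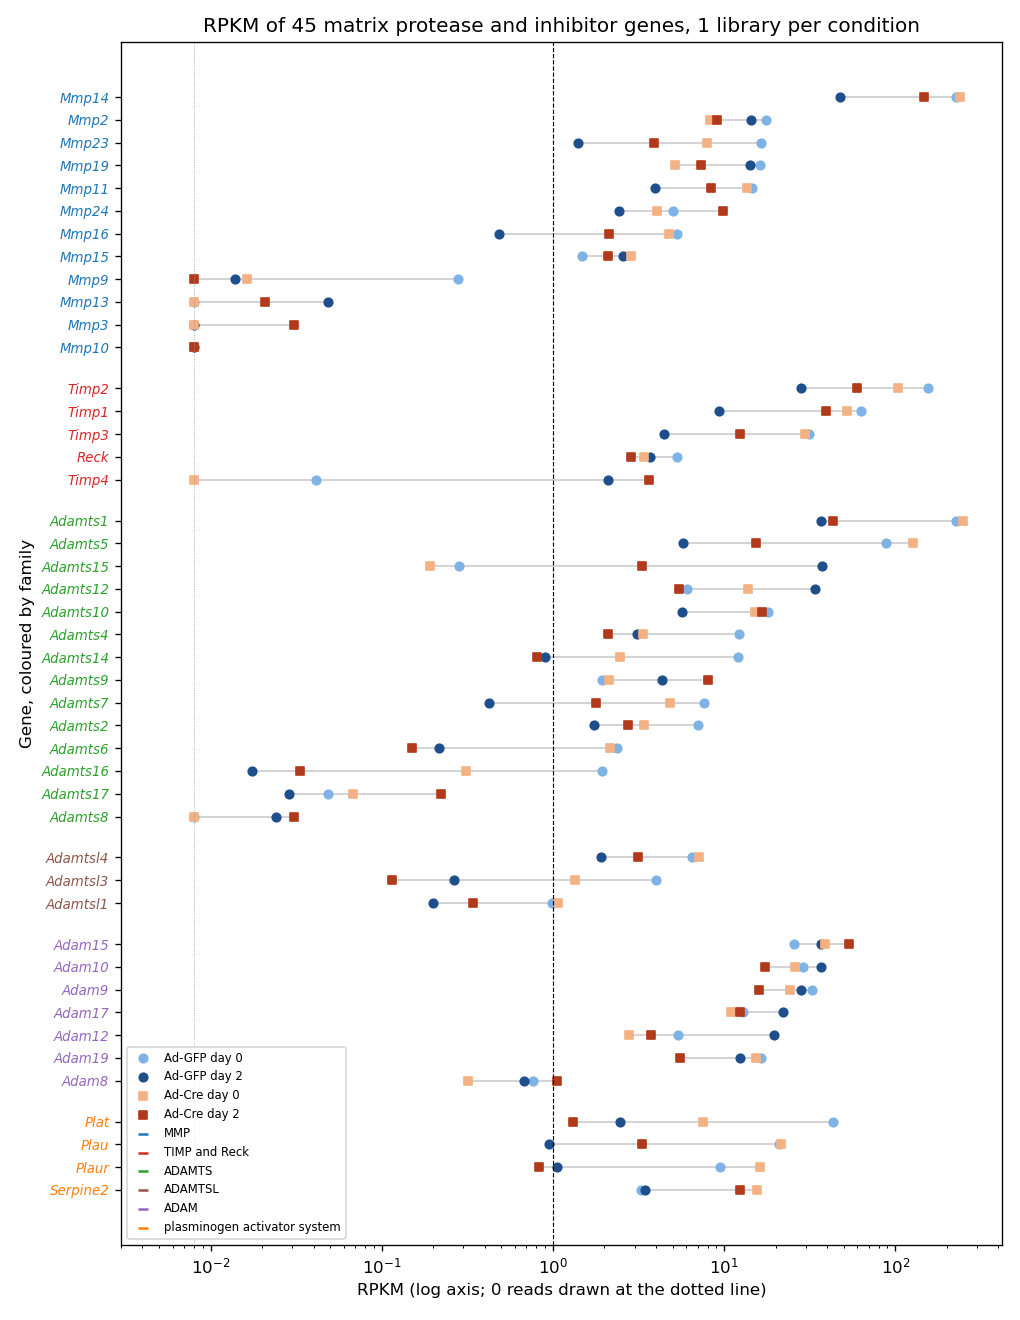
RPKM of the 45 genes on a log axis, with 1 point for each of the 4 libraries and genes coloured by family. The dashed line marks 1 RPKM and genes with 0 reads are drawn at the dotted line. *Mmp14* and *Timp2* are the highest of their families in all 4 libraries and *Adamts1* in 3, with *Adamts15* (37.4 RPKM) just above it (36.6 RPKM) in the Ad-GFP cells at day 2, while *Mmp3*, *Mmp9*, *Mmp10*, *Mmp13*, *Adamts8* and *Adamts17* lie below the dashed line in all 4 libraries.

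In Ad-GFP cells, most expressed genes of the matrix protease families were lower at day 2 than at day 0. Past 2.5-fold, 21 of 37 were lower (56.8%, against 12.7% of all 11537 expressed genes) and 4 were higher (10.8%, against 8.37%). Among the 28 genes that passed the threshold on both days, 14 were lower (against 8.06% of 10307 such genes) and 2 were higher (7.14%, against 6.38%). The median log2 ratio of the 37 genes was -1.88, beside 0.15 for all expressed genes. The lower genes were 4 of 8 MMPs, 3 of 5 TIMPs and *Reck*, 9 of 12 ADAMTS genes, both ADAMTS-like genes and 3 of 4 plasminogen activator genes, but 0 of 6 ADAMs. The higher genes were *Timp4*, *Adamts12*, *Adamts15* and *Adam12*. Of these, *Timp4* and *Adamts15* passed the threshold at day 2 alone, which favours a call as higher. The mesenchymal markers moved with the lower genes (5 of 6 lower past 2.5-fold), as did *Acta1*, and the adipocyte markers with the higher ones (7 of 7 higher), and their part in these values was not tested. Of the 7 adipocyte markers, 4 passed the threshold on both days. *Plin1*, *Adipoq* and *Prdm16* passed at day 2 alone, which favours a call as higher, and *Acta1* at day 0 alone, which favours a call as lower. The TMM factors of edgeR, another scaling, move every ratio of this comparison by -0.11 and give a median of -1.99 beside 0.03 for all genes.

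In Ad-Cre cells, 12 of 37 genes were lower at day 2 than at day 0 (32.4%, against 10.0% of all expressed genes) and 3 were higher (8.11%, against 8.67%). Among the 28 genes over the threshold on both days in the Ad-GFP cells, 6 were lower (21.4%, against 7.56%) and 1 was higher (3.57%, against 6.96%). The median log2 ratio of the 37 was -0.69, beside -0.01 for all expressed genes. With a pseudocount of 1 RPKM, 5 of the 12 were under the cutoff, *Adamts7* (-1.07), *Adamts12* (-1.20), *Adamts14* (-0.94), *Adamts16* (-0.34) and *Adamtsl3* (-1.07). Of the 21 genes lower in the Ad-GFP cells, 10 were also lower in the Ad-Cre cells and 11 were past the cutoff in neither direction. The 10 genes were *Adamts1*, *Adamts5*, *Adamts6*, *Adamts7*, *Adamts14*, *Adamts16*, *Adamtsl3*, *Plau*, *Plaur* and *Plat*. The 11 genes were *Mmp11*, *Mmp14*, *Mmp16*, *Mmp23*, *Timp1*, *Timp2*, *Timp3*, *Adamts2*, *Adamts4*, *Adamts10* and *Adamtsl4*, so that no MMP and no TIMP was past the cutoff downward in the Ad-Cre cells. The other pair of lower genes in the Ad-Cre cells was *Adamts12* and *Adam19*, and the 3 higher genes were *Timp4*, *Adamts15* and *Adamts9*. With a cutoff of 2-fold, *Timp3* (-1.26), *Mmp16* (-1.17), *Mmp23* (-1.02) and *Adamtsl4* (-1.18) were lower as well, and *Mmp24* (1.28) was higher. Of the markers, 4 of 6 mesenchymal genes were lower and 6 of 7 adipocyte genes higher, *Acta1* was lower, and their part was not tested. The ratios of the Ad-GFP and Ad-Cre cells rest on separate libraries.

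**Figure D2:**
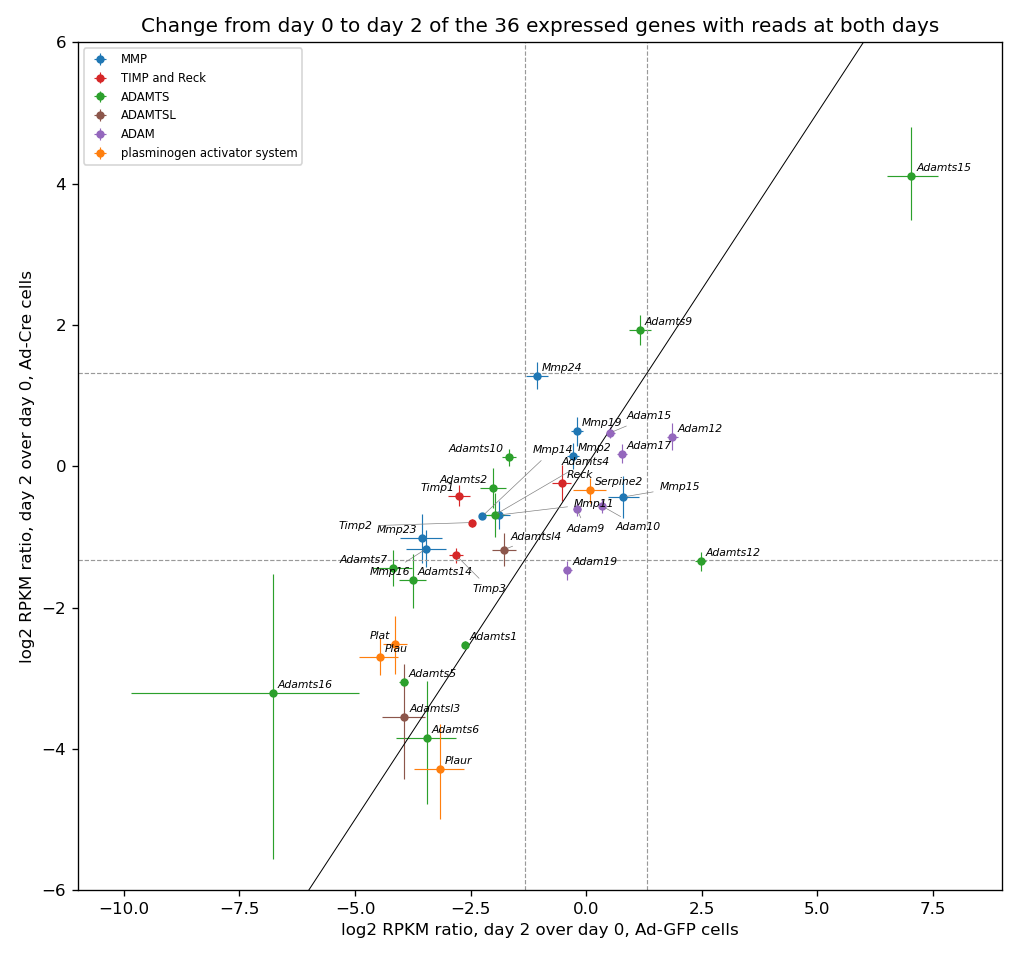
Log2 ratio of RPKM at day 2 over day 0 in the Ad-Cre cells (vertical) against Ad-GFP cells (horizontal) for expressed genes with reads at both days, coloured by family. Bars are exact binomial 95% intervals (counting error only), dashed lines mark 2.5-fold and the solid line equal ratios. *Mmp14*, *Timp1*, *Timp2* and *Mmp16* lie above the line, with the smaller fall in the Ad-Cre cells, and *Adamts12* lies far below it.

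Between Ad-Cre and Ad-GFP cells, fewer genes were past 2.5-fold at day 0 than at day 2, in this list and among all expressed genes. At day 0, 1 of 37 genes was higher in the Ad-Cre cells (2.7%, against 1.27% of all expressed genes) and 7 were lower (18.9%, against 4.12%), with a median log2 ratio of -0.25 beside -0.02 for all genes. At day 2, 11 were higher (29.7%, against 8.15%) and 3 were lower (8.11%, against 10.1%), with a median of 0.54 beside -0.16. Among the 28 genes over the threshold on both days, 1 was higher (3.57%, against 0.640%) and 3 were lower (10.7%, against 2.20%) at day 0, and 8 were higher (28.6%, against 6.05%) and 2 lower (7.14%, against 8.95%) at day 2. Of the 7 genes lower at day 0, *Timp4*, *Adamts14*, *Adamts16* and *Adamtsl3* passed the threshold on one day alone. The call of *Timp4* rests on 1 and 0 reads. With at least 20 reads in either library 6 of the 7 were still lower, and with a pseudocount of 1 RPKM 4 were. TMM factors move every ratio at day 2 by 0.20 and give a median of 0.73 beside 0.03. *Serpine2* was higher in the Ad-Cre cells on both days. The 7 genes lower at day 0 were *Mmp19*, *Timp4*, *Adamts4*, *Adamts14*, *Adamts16*, *Adamtsl3* and *Plat*, and none of them was past the cutoff at day 2. The 10 others higher at day 2 were *Mmp14*, *Mmp16*, *Mmp23*, *Mmp24*, *Timp1*, *Timp3*, *Adamts5*, *Adamts7*, *Adamts10* and *Plau*, and the 3 lower were *Adamts12*, *Adamts15* and *Adam12*. Of these, *Mmp16*, *Adamts7* and *Plau* passed the threshold at day 0 alone, which favours a call as higher here. *Adamts15* passed it at day 2 alone, which favours its call as lower. With a pseudocount of 1 RPKM, which reduces the ratios of low genes, 6 of the 11 higher genes were under the cutoff, *Mmp16* (1.07), *Mmp23* (1.03), *Timp3* (1.28), *Adamts5* (1.27), *Adamts7* (0.96) and *Plau* (1.15). The comparison at day 2 shares the Ad-GFP day 2 library with the time course in the Ad-GFP cells, and a gene low in that library is low in both. At day 0, 1 of 7 adipocyte and 2 of 6 mesenchymal markers were lower in the Ad-Cre cells. At day 2 the adipocyte markers were lower in the Ad-Cre cells (7 of 7 past 2.5-fold), and of the 6 mesenchymal markers 1 was higher and 1 lower. *Plin1*, *Adipoq* and *Prdm16* were counted as expressed through the Ad-GFP day 2 library alone, which favours their call as lower here. The part of the markers in the protease values was not tested.

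**Figure D3:**
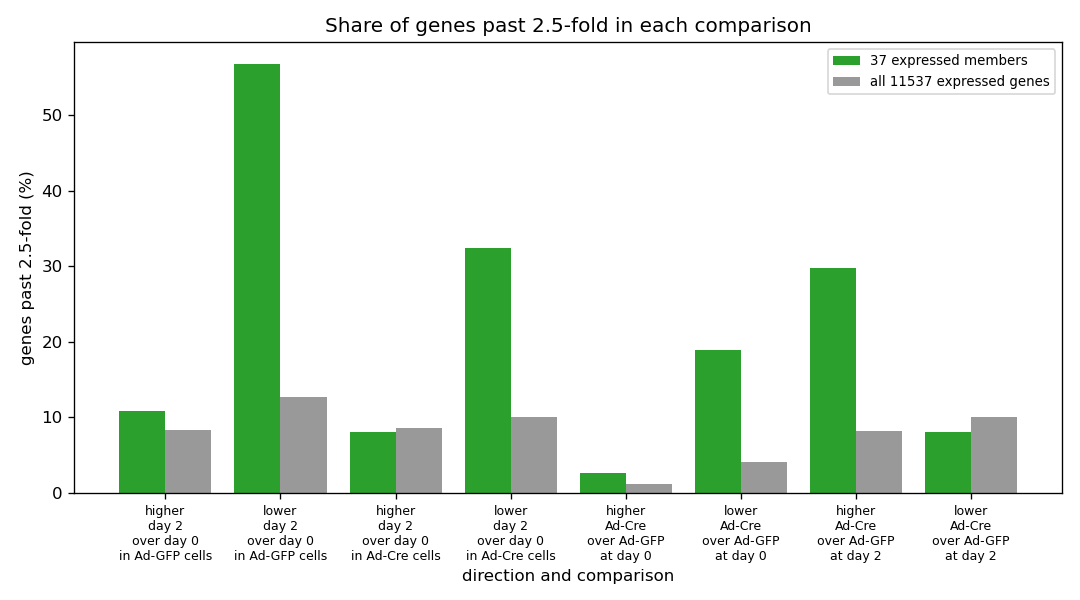
Percent of genes past 2.5-fold, higher or lower, in each of the 4 comparisons, for the 37 expressed genes of the matrix protease families (green) and for all 11537 expressed genes (grey), from 1 library per condition. The green bar is the taller by far for lower genes in the Ad-GFP cells (56.8% against 12.7%), while higher genes in the Ad-Cre cells stand at 8.11% against 8.67%.

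Among the MMPs, the membrane-anchored collagenase gene *Mmp14* (NM_008608, chr14:55050441-55060095, plus strand) had the highest level in every library. It had 226, 47.7, 240 and 147 RPKM (10114, 2847, 12166 and 6883 reads). The level was low in the Ad-GFP day 2 library alone, and the 3 other libraries were each above 100 RPKM. Day 2 was below day 0 by a log2 ratio of -2.25 (95% interval -2.31 to -2.19) in the Ad-GFP cells and by -0.71 (-0.75 to -0.67) in the Ad-Cre cells. At day 2 the gene was 3.08-fold higher in the Ad-Cre than in the Ad-GFP cells, a log2 ratio of 1.62 (1.56 to 1.69), after 0.08 (0.05 to 0.12) at day 0. The log2 ratio of day 2 to day 0 was thus higher in Ad-Cre cells by 1.54 (1.47 to 1.61). *Mmp14* made 74.7%, 54.7%, 83.8% and 77.4% of the summed MMP level. In its transcript, 2.43% of bases lie in stretches of at least 50 bases that match elsewhere in the genome, as do 1.33% in *Timp3*.

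The other membrane-anchored MMP genes did not follow a common course. *Mmp16* (chr4:17780040-18046292) had 5.31, 0.485, 4.76 and 2.12 RPKM, from 418, 51, 425 and 175 reads. *Mmp23* (chr4:155024764-155027493), whose product is held in the membrane until it is cut, had 16.4, 1.4, 7.9 and 3.91 RPKM, from 404, 46, 221 and 101 reads. Both were lowest in the Ad-GFP day 2 library, with log2 ratios of day 2 to day 0 of -3.45 (-3.90 to -3.03) and -3.55 (-4.03 to -3.11) in the Ad-GFP cells against -1.17 (-1.43 to -0.91) and -1.02 (-1.37 to -0.67) in the Ad-Cre cells. At day 2, *Mmp16* was 4.37-fold and *Mmp23* 2.8-fold higher in the Ad-Cre than in the Ad-GFP cells, and both were under the cutoff with a pseudocount of 1 RPKM.

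*Mmp24* (chr2:155601078-155644102) took opposite directions in the Ad-GFP and Ad-Cre cells. It had 5.04, 2.42, 4.06 and 9.88 RPKM (373, 239, 341 and 767 reads), with the highest level in the Ad-Cre cells at day 2. The log2 ratio of day 2 to day 0 was -1.06 (-1.30 to -0.82) in the Ad-GFP cells and 1.28 (1.10 to 1.47) in the Ad-Cre cells, neither past 2.5-fold, and the latter was past it with TMM factors (1.35). Ad-Cre cells were 4.09-fold above the Ad-GFP cells at day 2. Of its annotated exon bases, 13.6% overlap an antisense long non-coding RNA, BC029722, and whether the counting used strand is not given in the sources used here. *Mmp15*, with 1.48, 2.58, 2.84 and 2.1 RPKM, stayed within 2.5-fold in all 4 comparisons.

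The secreted MMPs *Mmp2*, *Mmp11* and *Mmp19* were expressed in all 4 libraries. *Mmp2*, a gelatinase whose proenzyme the *Mmp14* product activates, had 17.5, 14.4, 8.22 and 9.08 RPKM and was past 2.5-fold in no comparison. Its levels were ordered by virus rather than by day, with both Ad-Cre libraries below both Ad-GFP libraries, at log2 ratios of -1.09 (-1.25 to -0.93) at day 0 and -0.67 (-0.82 to -0.51) at day 2. *Mmp19* (chr10:128228009-128237880) had 16.3, 14.2, 5.19 and 7.3 RPKM (954, 1110, 345 and 449 reads), the same order of the libraries. Ad-Cre cells were lower by a log2 ratio of -1.65 (-1.83 to -1.47) at day 0, past 2.5-fold, and by -0.96 (-1.12 to -0.80) at day 2. An antisense gene, 1110012D08Rik, covers 23.1% of its annotated exon bases. *Mmp11*, another secreted MMP, had 14.5, 3.95, 13.6 and 8.42 RPKM (562, 204, 595 and 341 reads) and, like *Mmp14*, was lowest in the Ad-GFP cells at day 2. Its log2 ratio of day 2 to day 0 was -1.88 (-2.12 to -1.65) in the Ad-GFP cells and -0.69 (-0.89 to -0.49) in the Ad-Cre cells.

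The collagenase and stromelysin genes *Mmp3*, *Mmp10* and *Mmp13* were nearly without reads. *Mmp10* had 0 reads in all 4 libraries, *Mmp3* had 1 read in the Ad-Cre cells at day 2 and none elsewhere, and *Mmp13* had 3 reads in the Ad-GFP and 1 in the Ad-Cre cells at day 2. These genes belong to a cluster on chromosome 9, of which 9 genes have a row in the files, and the 9 genes together had 5 reads in the 4 libraries. The gelatinase gene *Mmp9* had 15, 1, 1 and 0 reads, at most 0.278 RPKM. The promoters of *Mmp3*, *Mmp10* and *Mmp13* printed above hold the AP-1 and TATA motifs, and the AP-1 motif is also present before the expressed gene *Plaur*.

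Of the inhibitors, *Timp1*, *Timp2* and *Timp3* were low at day 2 in the Ad-GFP cells and less so in the Ad-Cre cells, and *Timp4* was the exception. TIMPs bind the active site of MMPs, and the product of *Timp3* is itself held in the matrix and also blocks several ADAM and ADAMTS enzymes. *Timp2* (NM_011594, chr11:118162383-118217054, minus strand) had the highest level at 156, 28.3, 103 and 59.5 RPKM (9734, 2356, 7303 and 3884 reads). *Timp1* (chrX:20447292-20451861, plus strand) had 62.7, 9.34, 52.4 and 39.3 RPKM (960, 191, 910 and 630 reads). *Timp3* (chr10:85763117-85812251, plus strand) had 31.5, 4.48, 29.6 and 12.3 RPKM (2533, 482, 2700 and 1041 reads). In each of the 3 genes the Ad-GFP day 2 library was the lowest and both day 0 libraries were above both day 2 libraries.

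The log2 ratio of day 2 to day 0 in the Ad-GFP cells was -2.75 (-2.98 to -2.52) for *Timp1*, -2.47 (-2.53 to -2.40) for *Timp2* and -2.81 (-2.96 to -2.67) for *Timp3*. In Ad-Cre cells it was -0.42 (-0.57 to -0.27), -0.80 (-0.85 to -0.74) and -1.26 (-1.37 to -1.16) in the same order, and the difference was largest for *Timp1*, at 2.33 (2.06 to 2.60). At day 2, Ad-Cre cells were above the Ad-GFP cells 4.2-fold for *Timp1* and 2.75-fold for *Timp3*, while *Timp2*, at 2.1-fold, was under the cutoff. *Timp1*, *Timp3* and *Timp4* lie on the opposite strand within the synapsin genes *Syn1*, *Syn3* and *Syn2*. *Syn3* shares 21.3% of the annotated exon bases of *Timp3*, and its own transcript in the files had between 16 and 24 reads per library. *Syn1* had 55, 28, 69 and 41 reads and *Syn2* had 2, 30, 0 and 4, each changing between the days of the Ad-GFP cells in the direction of the TIMP gene within it.

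*Timp4* (chr6:115195634-115201867, minus strand) went the other way at a low level. It had 1, 68, 0 and 93 reads, or 0.0411, 2.09, 0 and 3.64 RPKM. Nearly all of its reads came from the pair of day 2 libraries. The ratio of day 2 to day 0 was 50.9-fold in the Ad-GFP cells, with a log2 interval of 3.14 to 10.99 that reflects the single read at day 0, and at least 33.5-fold in the Ad-Cre cells, set against 3 reads at day 0. At day 2 Ad-Cre cells had 1.74-fold the level of Ad-GFP cells (log2 ratio 0.80, 0.34 to 1.27). Its call as lower in the Ad-Cre cells at day 0 rests on 1 and 0 reads, and no fold is given. *Reck*, a membrane-anchored inhibitor of MMPs, had 5.3, 3.67, 3.39 and 2.86 RPKM and was within 2.5-fold throughout.

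**Figure D4:**
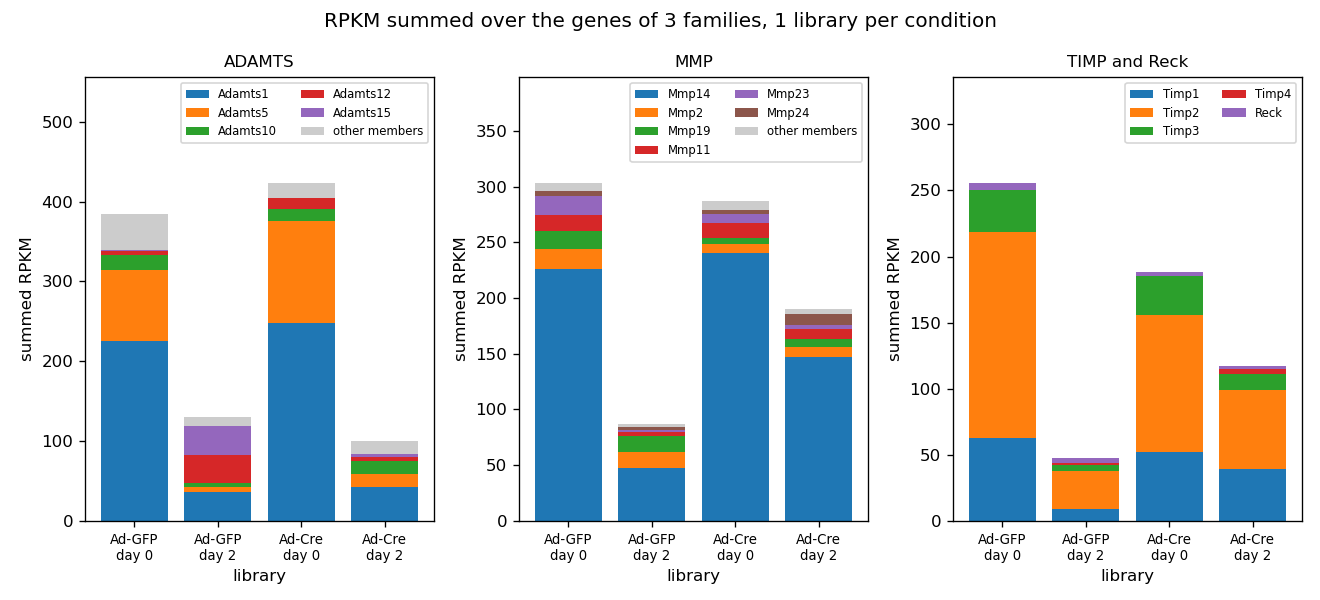
RPKM summed over the ADAMTS, MMP and TIMP and *Reck* genes in each of the 4 libraries (bars start at 0, 1 library per condition), with the part of single genes in colour. *Adamts1* and *Adamts5* fill most of the ADAMTS bars except in the Ad-GFP cells at day 2, where *Adamts12* and *Adamts15* make 54.9%. *Mmp14* makes over 50% of each MMP bar.

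The summed MMP level and the summed TIMP level were both lower at day 2. The MMP genes summed to 303, 87.2, 287 and 190 RPKM and the 4 TIMP genes to 250.5, 44.2, 185 and 115 RPKM. The ratio of summed MMP to summed TIMP level was 1.21, 1.97, 1.55 and 1.66. It was highest in the Ad-GFP cells at day 2, where both sums were lowest. These sums are of RNA, and *Mmp14* and *Timp2* are the highest gene of each family. The ratio of the sums does not follow these genes alone. In the Ad-GFP cells at day 2, *Mmp14* made 54.7% of the MMP sum, its lowest part. There *Mmp2* had 14.4 and *Mmp19* 14.2 RPKM.

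The make-up of the ADAMTS family differed between the libraries. *Adamts1* and *Adamts5* together made 81.9%, 32.5%, 88.7% and 58.6% of its summed level, and *Adamts12* and *Adamts15* together 1.66%, 54.9%, 3.32% and 8.81%. The family summed to 384, 130.3, 423 and 99.5 RPKM. Among its members, the proteoglycan-cutting enzymes (*Adamts1*, *Adamts4*, *Adamts5*, *Adamts9* and *Adamts15*) were not of a single direction.

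*Adamts1* (NM_009621, chr16:85794072-85803358, minus strand), which cuts the proteoglycans aggrecan and versican, was among the highest genes of the list at 226, 36.6, 248 and 43.1 RPKM (18982, 4113, 23636 and 3793 reads). *Adamts5* (NM_011782, chr16:85858415-85901370, minus strand), a major aggrecanase, lies 55056 bases from it and had 88.6, 5.74, 128 and 15.3 RPKM (12351, 1069, 20167 and 2233 reads). Both neighbours were high at day 0 and low at day 2, whichever virus the cells had received. The log2 ratio of day 2 to day 0 of *Adamts1* was -2.62 (-2.67 to -2.58) in the Ad-GFP and -2.53 (-2.58 to -2.48) in the Ad-Cre cells, nearly the same. For *Adamts5* it was -3.95 (-4.04 to -3.86) and -3.06 (-3.12 to -3.0), and the gene was 2.66-fold higher in the Ad-Cre than in the Ad-GFP cells at day 2. *Adamts4*, another aggrecanase, had 12.2, 3.09, 3.36 and 2.08 RPKM (770, 261, 241 and 138 reads), with the Ad-GFP day 0 library well above the 3 others. Ad-Cre cells lay below Ad-GFP cells, at day 0 by a log2 ratio of -1.86 (-2.07 to -1.65) and at day 2 by -0.57 (-0.88 to -0.27).

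*Adamts15* (NM_001024139, chr9:30706740-30730037, minus strand), an enzyme that cuts versican and aggrecan, had the largest ratio of day 2 to day 0 in the Ad-GFP cells among the expressed genes of the list. It had 0.284, 37.4, 0.19 and 3.29 RPKM (29, 5099, 22 and 352 reads). Both day 0 libraries were low, the Ad-GFP day 2 library was by far the highest, and the Ad-Cre day 2 library lay between. In the Ad-GFP cells the gene passed 1 RPKM at day 2 alone. This favours its rise there and its call as lower in the Ad-Cre cells at day 2. Day 2 was 132-fold above day 0 in the Ad-GFP cells (log2 ratio 7.04, 6.52 to 7.62) and 17.3-fold in the Ad-Cre cells (4.11, 3.49 to 4.81). The difference of these log2 ratios, Ad-Cre minus Ad-GFP, was -2.93 (-3.74 to -2.11), and at day 2 Ad-Cre cells were 11.4-fold below the Ad-GFP cells. Its neighbour *Adamts8*, which lies 20109 bases away, had 0, 2, 0 and 2 reads. *Adamts9*, a versican-cutting enzyme with an antisense transcript over 11% of its annotated exon bases, had 1.94, 4.32, 2.11 and 8.03 RPKM (201, 600, 249 and 874 reads). It was higher at day 2 in both, by 1.16 (0.93 to 1.40) in the Ad-GFP cells, under the cutoff, and by 1.93 (1.72 to 2.13) in the Ad-Cre cells, past it.

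*Adamts12* (NM_175501, chr15:10994545-11276622, plus strand) encodes an enzyme that, like that of *Adamts7*, cuts cartilage oligomeric matrix protein. It had 6.09, 34, 13.9 and 5.47 RPKM (653, 4877, 1688 and 615 reads). The Ad-GFP day 2 library was the highest, the Ad-Cre day 0 library was next, and the 2 others were close to each other. Day 2 was 5.59-fold above day 0 in the Ad-GFP cells, a log2 ratio of 2.48 (2.36 to 2.60), and 2.54-fold below it in the Ad-Cre cells, a log2 ratio of -1.34 (-1.48 to -1.21). The lower level in the Ad-Cre cells kept its direction but was under the cutoff with TMM factors (-1.28), with the sum of counts as library size (-1.16), with a pseudocount of 1 RPKM (-1.20) and after division by the trend over exon length (-0.75). Ad-Cre cells were above the Ad-GFP cells at day 0 by 1.19 (1.06 to 1.32) and below them at day 2 by -2.64 (-2.76 to -2.52), or 6.22-fold. *Adamts7*, in contrast, had 7.65, 0.423, 4.82 and 1.77 RPKM (703, 52, 503 and 171 reads), with the Ad-GFP day 2 library the lowest. Its log2 ratio of day 2 to day 0 was -4.18 (-4.61 to -3.77) in the Ad-GFP and -1.44 (-1.70 to -1.19) in the Ad-Cre cells. The latter was under the cutoff with the sum of counts (-1.26), a pseudocount of 1 RPKM (-1.07) and the length trend (-0.97).

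*Adamts2* and *Adamts14* encode procollagen N-proteinases, which remove the amino-terminal propeptide of fibrillar procollagens. *Adamts2* had 7.04, 1.74, 3.38 and 2.74 RPKM (453, 150, 247 and 185 reads) and *Adamts14* had 12.1, 0.897, 2.46 and 0.802 RPKM (1076, 107, 249 and 75 reads). Both were highest in the Ad-GFP cells at day 0, and *Adamts14* was low in both day 2 libraries. Their log2 ratios of day 2 to day 0 in the Ad-GFP cells were -2.01 (-2.29 to -1.74) and -3.75 (-4.05 to -3.46). In Ad-Cre cells they were -0.30 (-0.59 to -0.02), which was 0.04 with the length trend removed, and -1.62 (-2.01 to -1.24). *Adamts14* was 4.9-fold lower in the Ad-Cre than in the Ad-GFP cells at day 0. At day 2 the log2 ratio was -0.16 (-0.61 to 0.28), which was 0.04 with TMM factors. The collagen genes *Col1a1* and *Col1a2*, whose products these enzymes trim, were lower at day 2 by log2 ratios of -4.24 and -3.47 in the Ad-GFP cells and of -2.83 and -1.88 in the Ad-Cre cells.

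*Adamts10*, whose product binds fibrillin microfibrils, had 18, 5.67, 15.2 and 16.5 RPKM (1260, 530, 1202 and 1212 reads). The Ad-GFP day 2 library alone was low, at a log2 ratio to day 0 of -1.67 (-1.82 to -1.52), against 0.13 (0.01 to 0.24) in the Ad-Cre cells. At day 2 the gene was 2.92-fold higher in the Ad-Cre than in the Ad-GFP cells. The related gene *Adamts6* had 2.35, 0.217, 2.15 and 0.15 RPKM (195, 24, 202 and 13 reads). It was low in both day 2 libraries, with log2 ratios of -3.44 (-4.12 to -2.83) in the Ad-GFP and -3.84 (-4.78 to -3.04) in the Ad-Cre cells. *Adamts16*, which has been linked to blood pressure, had 165, 2, 30 and 3 reads, 1.93 RPKM in the Ad-GFP cells at day 0 and under 1 RPKM in the other libraries. Its log2 ratio of day 2 to day 0 was -6.78 (-9.84 to -4.91) in the Ad-GFP and -3.21 (-5.56 to -1.52) in the Ad-Cre cells, with wide intervals from 2 and 3 reads. At day 0 it was 6.24-fold lower in the Ad-Cre than in the Ad-GFP cells (log2 ratio -2.64, -3.25 to -2.07). *Adamts17* had at most 24 reads and *Adamts8* at most 2 in a library.

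The ADAMTS-like proteins have the ancillary domains of the ADAMTS enzymes without the protease. *Adamtsl4*, whose product binds fibrillin, had 6.51, 1.91, 7.14 and 3.15 RPKM (432, 169, 537 and 219 reads), with both day 0 libraries above both day 2 libraries. Its log2 ratio of day 2 to day 0 was -1.77 (-2.04 to -1.51) in the Ad-GFP and -1.18 (-1.41 to -0.95) in the Ad-Cre cells. *Adamtsl3* had 4.01, 0.263, 1.34 and 0.114 RPKM (502, 44, 191 and 15 reads) and was lower at day 2 in both, at -3.93 (-4.41 to -3.48) and -3.56 (-4.42 to -2.80). It was also lower in the Ad-Cre than in the Ad-GFP cells at day 0, by a log2 ratio of -1.58 (-1.82 to -1.33). *Adamtsl1* had 0.987, 0.2, 1.07 and 0.34 RPKM (133, 36, 164 and 48 reads), over 1 RPKM in the Ad-Cre cells at day 0 alone.

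In the ADAM family, 6 genes were expressed, all over the threshold on both days. None of the 6 was past 2.5-fold downward in the Ad-GFP cells, against 8.06% of all genes over the threshold on both days. With 6 genes, this count does not set the family apart. *Adam15*, with an antisense transcript over 20.5% of its annotated exon bases, reached the highest level of the family in Ad-Cre cells at day 2, at 25.7, 37, 38.6 and 53.6 RPKM (1323, 2540, 2252 and 2891 reads) and was higher at day 2 in both Ad-GFP and Ad-Cre cells, within 2.5-fold. The main sheddase genes *Adam10* (29, 37, 25.8 and 17.4 RPKM) and *Adam17* (12.9, 22.1, 10.9 and 12.4 RPKM) were highest in the Ad-GFP cells at day 2. For *Adam10* the log2 ratio of day 2 to day 0 was 0.35 (0.28 to 0.43) in the Ad-GFP and -0.57 (-0.66 to -0.47) in the Ad-Cre cells. Both genes, and *Adam9* (32.4, 28.2, 24.3 and 16 RPKM), stayed within 2.5-fold in every comparison. The summed level of the ADAM genes was 123, 157, 118 and 109.7 RPKM, with the smallest ratio of the highest to the lowest library among the 6 families.

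*Adam12* (NM_007400, chr7:141074882-141423829, minus strand), or meltrin alpha, an ADAM known from muscle and fat development, was the ADAM gene past 2.5-fold in the Ad-GFP cells. It had 5.4, 19.7, 2.79 and 3.73 RPKM (713, 3469, 418 and 516 reads). The Ad-GFP day 2 library stood above the 3 others. Its log2 ratio of day 2 to day 0 was 1.86 (1.75 to 1.98), or 3.64-fold, in the Ad-GFP cells and 0.42 (0.23 to 0.61) in the Ad-Cre cells. Ad-Cre cells were 5.27-fold lower at day 2 and 1.94-fold lower at day 0. *Adam19*, or meltrin beta, had 16.4, 12.4, 15.4 and 5.52 RPKM (1802, 1818, 1913 and 636 reads), and here the Ad-Cre day 2 library was the low one. Its log2 ratio of day 2 to day 0 was -0.41 (-0.50 to -0.31) in the Ad-GFP cells and -1.47 (-1.61 to -1.34) in the Ad-Cre cells, the latter under the cutoff with the sum of counts (-1.30) and the length trend (-0.88). *Adam8* had 0.767, 0.674, 0.321 and 1.06 RPKM (40, 47, 19 and 58 reads), over 1 RPKM in the Ad-Cre cells at day 2 alone.

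The plasminogen activators were low at day 2 in both Ad-GFP and Ad-Cre cells. *Plau* (NM_008873, chr14:21655884-21662610, plus strand), which encodes the urokinase-type activator, had 21, 0.947, 21.5 and 3.31 RPKM (845, 51, 981 and 140 reads). *Plat* (NM_008872, chr8:23868216-23893319, plus strand), which encodes the tissue-type activator, had 43, 2.46, 7.53 and 1.31 RPKM (1873, 143, 372 and 60 reads). *Plaur* (NM_011113, chr7:25247519-25260892, plus strand), the receptor that holds urokinase at the cell surface, had 9.5, 1.06, 16.3 and 0.834 RPKM (228, 34, 443 and 21 reads). In all 3 genes both day 2 libraries were below both day 0 libraries.

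The log2 ratio of day 2 to day 0 in the Ad-GFP cells was -4.47 (-4.91 to -4.06) for *Plau*, -4.13 (-4.39 to -3.88) for *Plat* and -3.16 (-3.73 to -2.64) for *Plaur*. In Ad-Cre cells it was -2.70 (-2.96 to -2.44), -2.52 (-2.94 to -2.12) and -4.29 (-4.99 to -3.65) in the same order. The genes parted in Ad-Cre against Ad-GFP cells. *Plat* was 5.71-fold lower in the Ad-Cre cells at day 0 (log2 ratio -2.51, -2.68 to -2.35) and 1.87-fold lower at day 2. *Plau* was at a log2 ratio of 0.03 (-0.10 to 0.17) at day 0 and 3.5-fold higher at day 2 (1.81, 1.33 to 2.30). Plasminogen itself (*Plg*) had 0 reads in all 4 libraries.

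*Serpine2* (NM_009255, chr1:79790772-79855271, minus strand), a serpin that inhibits thrombin, urokinase and tissue-type plasminogen activator, was ordered by virus and not by day. It had 3.25, 3.43, 15.5 and 12.3 RPKM (115, 162, 623 and 456 reads). Both Ad-Cre libraries were above both Ad-GFP libraries, 4.78-fold at day 0 (log2 ratio 2.26, 1.97 to 2.56) and 3.59-fold at day 2 (1.84, 1.58 to 2.11). Between the days it was at 0.08 (-0.28 to 0.43) in the Ad-GFP cells, which was -0.04 with TMM factors, and at -0.34 (-0.51 to -0.16) in the Ad-Cre cells. It was the one gene of the 37 past the cutoff upward at day 0.

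**Figure D5:**
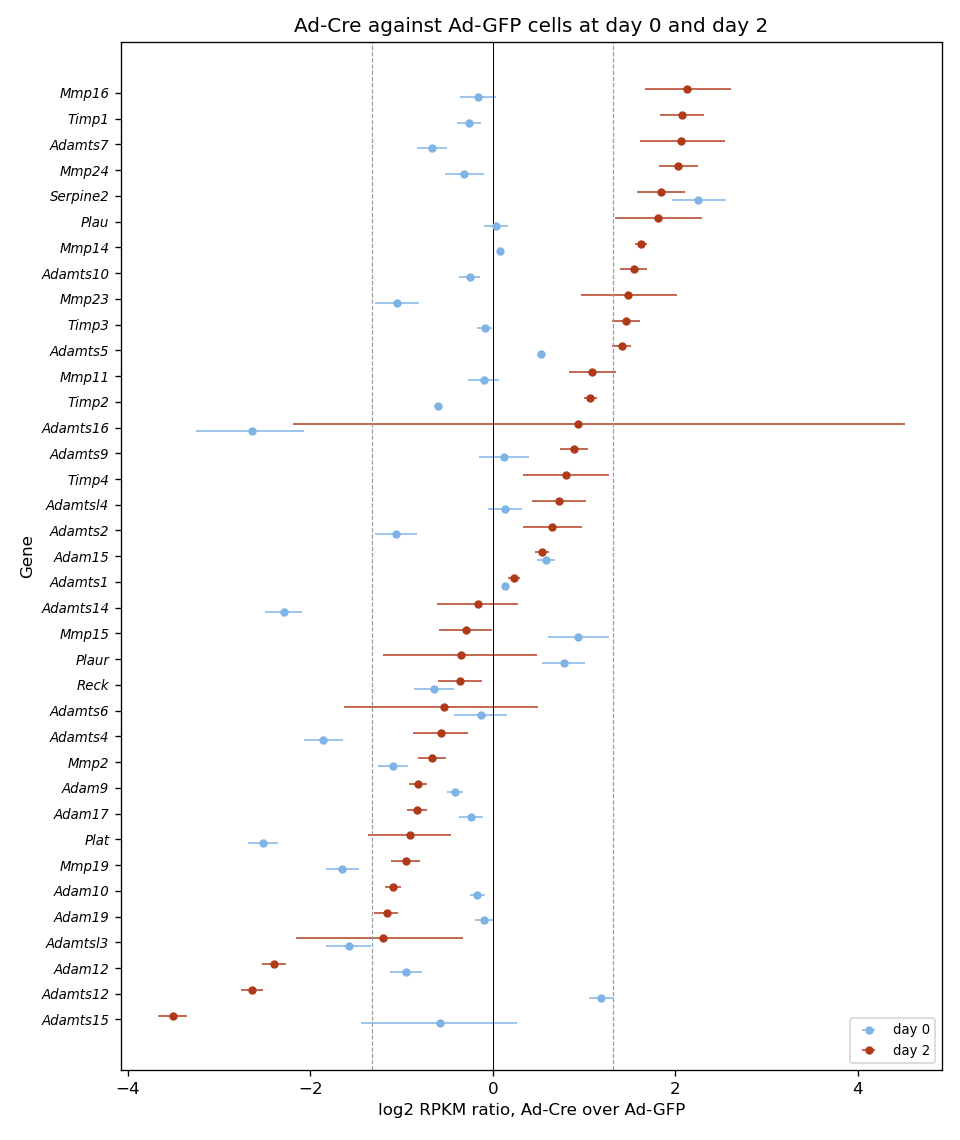
Log2 ratio of RPKM in Ad-Cre over the Ad-GFP cells at day 0 (light blue) and day 2 (red) for the expressed genes, ordered by the day 2 ratio, with exact binomial 95% intervals for counting error only. Dashed lines mark 2.5-fold, and *Timp4* has no point at day 0 because Ad-Cre cells had 0 reads. *Serpine2* is past the cutoff on both days, while *Mmp14*, *Mmp16*, *Timp1* and *Plau* are near 0 at day 0 and past it at day 2.

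Other genes of the pathway were taken from a list of 74 genes, of which 73 were found and 38 were expressed. Of these, 28 passed the threshold on both days and 10 on one day alone. In Ad-GFP cells, 13 of the 38 were lower at day 2 past 2.5-fold (34.2%, against 12.7% of all expressed genes). Another 4 were higher (10.5%, against 8.37%), and the median log2 ratio was -0.50. In Ad-Cre cells 8 were lower (21.1%, against 10.0%) and 7 higher (18.4%, against 8.67%). Ad-Cre against Ad-GFP cells gave 3 higher (7.89%, against 1.27%) and 7 lower (18.4%, against 4.12%) at day 0. At day 2, 9 were higher (23.7%, against 8.15%) and 5 lower (13.2%, against 10.1%).

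Among the serine proteases and serpins of that list, *Htra1*, a secreted serine protease, took opposite directions, at 38.3, 6, 5.88 and 34.2 RPKM (1343, 281, 234 and 1259 reads), with log2 ratios of day 2 to day 0 of -2.68 (-2.87 to -2.49) in the Ad-GFP and 2.54 (2.34 to 2.75) in the Ad-Cre cells. *Serpina3n* had 0.586, 76.8, 0.221 and 12 RPKM, and, like *Adamts15*, was highest in the Ad-GFP cells at day 2 with the Ad-Cre day 2 library next. *Serpinh1*, a collagen chaperone, and *Serpinf1*, a secreted serpin that does not inhibit proteases, were lower at day 2 in the Ad-GFP cells by log2 ratios of -1.64 and -1.83. *Htra3*, another serine protease, was lower in the Ad-Cre than in the Ad-GFP cells by log2 ratios of -3.97 (-5.46 to -2.79) at day 0 and -2.15 (-2.81 to -1.54) at day 2.

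Of the other genes of the MMP, ADAM, ADAMTS and ADAMTS-like families, 18 of the 21 found were not expressed. The 3 expressed were *Mmp17*, *Mmp28* and *Adam23*. *Mmp17* was higher in the Ad-Cre cells at both days (log2 ratios of 1.69 and 1.53) and *Adam23* lower at both (-1.97 and -1.58). *Mmp28* had 20, 129, 31 and 25 reads, highest in the Ad-GFP cells at day 2. The cathepsins and legumain act mostly in lysosomes, and the cystatins inhibit such proteases. Of their 12 expressed genes, 2 were lower at day 2 in the Ad-GFP cells (16.7%, against 12.7% of all expressed genes). These were *Ctsk* (log2 ratio -2.70) and *Ctsh* (-4.14), and both were lower in the Ad-Cre cells as well (-2.17 and -3.53). *Ctsh* passed the threshold at day 0 alone, which favours its call as lower. *Ctsa*, *Ctsf*, *Ctsz* and the cysteine protease inhibitor *Cst3* were higher in the Ad-Cre than in the Ad-GFP cells at day 2, by log2 ratios of 1.65, 2.41, 1.53 and 1.42, and *Ctsb* and *Ctsf* were higher at day 2 than at day 0 in the Ad-Cre cells (1.43 and 2.39).

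Among activators, cofactors and clearance receptors, *Pappa*, a metalloproteinase that cuts insulin-like growth factor binding proteins, had 1.39, 5.52, 7.13 and 29.7 RPKM (263, 1400, 1534 and 5903 reads). It was higher at day 2 by nearly the same ratio in the Ad-GFP cells (1.99, 1.80 to 2.19) and in the Ad-Cre cells (2.06, 1.98 to 2.14), and higher in the Ad-Cre cells on both days (2.36 and 2.43). Its paralogue *Pappa2* was highest in the Ad-GFP cells at day 2, at 24, 276, 12 and 33 reads. *Pcolce*, which enhances procollagen C-proteinase activity, had 599, 140, 204 and 109 RPKM and was lower in the Ad-Cre cells at day 0 by a log2 ratio of -1.55. *Anxa2*, a cell surface cofactor of plasminogen activation, *Lrp8* and *Tll1* were lower at day 2 in both Ad-GFP and Ad-Cre cells, with log2 ratios between -2.63 and -3.34 in the Ad-GFP cells and between -1.36 and -3.59 in the Ad-Cre cells.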

How the data were processed

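RNA-Seq of 4 libraries was used, with groups taken from the labels. The authors aligned 50-base reads to NCBI37/mm9 and deposited, for each of 29082 RefSeq transcripts, the read count on exons without normalization. They also deposited the RPKM, for which the authors divided counts by exon length and by mapped reads (found by recomputing it), and the mapped reads were recovered as the common divisor of the values. How reads with several matches were treated is not given in the sources used here. The deposited counts summed to 99.0%, 96.1%, 99.4% and 87.8% of mapped reads, in the order of the libraries in the text.

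Symbols came from a RefSeq table of GRCm38.p6 used for names alone, which matched 97.8% of transcripts. Positions and overlaps came from GENCODE vM1 on NCBI37/mm9, and matches elsewhere from blastn 2.17.0. Ratios of RPKM were formed without a pseudocount, and intervals with scipy 1.17.1. From edgeR 4.0.16 (R 4.3.3) the TMM factors alone were taken. Other packages were pandas 2.3.3, numpy 2.4.6 and, for plots, matplotlib 3.10.9 (Python 3.11.15). Calls and intervals were tested on simulated counts with counting error alone, which does not cover variation between cultures or libraries.

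The genes and lists were chosen with earlier results of these data known. Values in all libraries are given for expressed genes with at least 100 reads in 1 library and past 2.5-fold in any comparison, for the highest gene of each family and for genes over 1 RPKM in the Ad-Cre cells alone. Other genes of the pathway are named where past 2.5-fold with at least 100 reads, except for some that are not reported here but are in the counts. *Mmp2*, *Mmp3*, *Mmp9*, *Mmp10*, *Mmp13*, *Mmp15*, *Timp4*, *Reck*, *Adamts8*, *Adamts17*, *Adam9*, *Adam10*, *Adam17* and *Plg* fall outside this rule and were described after their values were seen. Alternatives were TMM factors, the sum of counts as library size, a cutoff of 2-fold or 4-fold, 1 RPKM added to each value (a pseudocount), other thresholds of expression, at least 20 reads, the mean over transcripts and removal of the trend of the ratios over exon length in 20 bins. ChIP-Seq and myogenesis data were not used here.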

Additional observations from a re-analysis of the deposited data

Results flagged for a closer look

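The log2 ratio of day 2 to day 0 was compared in sign between Ad-GFP and Ad-Cre cells. In 6 of the 37 expressed genes of the list the signs were opposite and neither of the intervals for counting error covered both signs. The rule was applied to the listed genes alone, so this count has no share over all expressed genes beside it. There was 1 library per condition, so the difference was not tested. The difference, Ad-Cre minus Ad-GFP, was -3.83 for *Adamts12* (2.48 in the Ad-GFP and -1.34 in the Ad-Cre cells), 2.34 for *Mmp24* (-1.06 and 1.28), 1.79 for *Adamts10* (-1.67 and 0.13), -1.24 for *Mmp15* (0.80 and -0.44), -0.92 for *Adam10* (0.35 and -0.57) and 0.69 for *Mmp19* (-0.20 and 0.49). *Adamts12* was past 2.5-fold in both Ad-GFP and Ad-Cre cells, *Adamts10* in the Ad-GFP cells alone, and the 4 others in neither. With TMM factors the signs were the same in all 6 genes. In the Ad-Cre cells, however, *Adamts12* was then under 2.5-fold (-1.28) and *Mmp24* past it (1.35). *Mmp2* (-0.28 in the Ad-GFP and 0.14 in the Ad-Cre cells) and *Serpine2* (0.08 and -0.34) also had opposite signs. They were left out because an interval covered both signs, for *Mmp2* in the Ad-Cre cells (-0.04 to 0.33) and for *Serpine2* in the Ad-GFP cells (-0.28 to 0.43).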

How the results depend on the processing

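No paired analysis was possible because each condition has 1 library and the labels carry no replicate numbers. No replicate could be left out for the same reason. The counts and medians over the 37 genes kept their direction in every alternative. The median in the Ad-GFP cells was -1.51 with a pseudocount of 1 RPKM. With the same pseudocount, 7 genes were lower at day 2 in the Ad-Cre cells, 4 were lower in the Ad-Cre than in the Ad-GFP cells at day 0, and 5 were higher at day 2. With a cutoff of 2-fold, 2 genes were higher in the Ad-Cre cells at day 0 and 6 were lower at day 2, and with 4-fold, 4 were lower at day 0 and 4 higher at day 2. The median of Ad-Cre over Ad-GFP at day 2 was 0.73 with TMM factors, 0.67 with the sum of counts, 0.65 with a threshold of 0.5 RPKM or of 1 RPKM in either library compared, and 0.80 with the length trend removed. Of 116 log2 ratios of named genes, 59 were past the cutoff, and the number that lost their call was 1 with TMM factors, 3 with the sum of counts, 13 with the pseudocount and 5 with the length trend. Signs changed for 2 ratios with TMM factors and 4 with the length trend, with 0 of these among called ratios. In Ad-GFP cells the same 4 higher and 21 lower genes were called with TMM factors, the sum of counts, the pseudocount and the length trend. In Ad-Cre cells *Mmp24* became past the cutoff upward at day 2 with TMM factors (1.35), the sum of counts (1.46) and the length trend (1.54), and *Mmp23* downward with the length trend (-1.49). At day 2, with the length trend removed, *Timp2* (1.57), *Adamts9* (1.61) and *Adamts16* (from 2 and 3 reads) became higher and *Mmp23* (1.24) was no longer past the cutoff. Genes with few reads, such as *Timp4* and *Adamts16*, are limited by depth, and 0 reads allows up to 3.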
